A study of Mus musculus with 9 samples.

Results

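A group of 9 genes was chosen by name as direct TGF-β feedback and target genes: the feedback inhibitor Pmepa1, the Smad corepressors Ski, Skil and Tgif1, the early response gene Klf10, the cell cycle inhibitors Cdkn1a and Cdkn2b, the oxidase Nox4 and the protease inhibitor Serpine2. The genes were chosen with earlier results of these data known. All probe sets that carry 1 of these symbols and no other in the array's probe-to-gene table were taken, whatever their values. This gave 14 of the 45037 probe sets tested, for 8 of the 9 genes. Serpine2 carried no named probe set there and was not analysed here.

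RNA was measured on 9 Affymetrix mouse arrays in 3 groups of 3: sclerotome cultures with 5 ng/ml TGF-β1 for 8 h, cultures with 50 ng/ml BMP4 for 8 h, and untreated cultures. The sclerotome gives rise to the vertebrae and intervertebral discs. It was taken from wild-type E11.5 mouse embryos after removal of the notochord, and its cells were plated as dense drops (micromass cultures) in medium with 10% serum, which all groups received. The sources used here name no strain, and they differ on whether the factors were added soon after the cells attached or after a night in culture. The cultures were set up on 3 separate occasions, and p values therefore measure the spread from one set-up to another; the sources do not state that arrays of equal number share a set-up.

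TGF-β binds a pair of receptor kinases that phosphorylate Smad2 and Smad3, which join Smad4 and regulate transcription in the nucleus. Some of the genes switched on in this way code for proteins that restrain the same pathway, and others carry out its effects on cell division, matrix turnover and oxidant production. BMP4 belongs to the same ligand family but signals mainly through Smad1, Smad5 and Smad8, and in skeletal mesenchyme it is best known for promoting cartilage, whereas TGF-β promotes fibrous tissues of the disc and tendon.

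The deposited values are log2 signals centred on the median of each probe set over the 9 arrays, so a value of 0 is the middle array and not an absent transcript. They show differences between cultures and carry no expression level, which also means that the presence of a cell type cannot be judged from its markers. The spread of all probe sets on an array (SD) was 0.177 to 0.258 log2 units, and no 2 arrays were identical (0 pairs). The mean of 7 sclerotome markers lay between -0.04 and 0.18 in TGF-β1 cultures, between -0.53 and -0.48 in BMP4 cultures and between 0.00 and 0.48 in untreated cultures. Of these 7 markers, 4 were called lower with BMP4 than in untreated cultures and 0 with TGF-β1 (2 at unadjusted p under 0.05, limma). Means over 4 erythroid markers were -0.59 to 0.15 with TGF-β1, -0.50 to 0.08 with BMP4 and -0.20 to 1.36 untreated, with 0 of the 4 called (3 and 4 at unadjusted p under 0.05 for TGF-β1 and BMP4 against untreated, limma). Those over 6 skeletal muscle markers were -0.24 to -0.14 with TGF-β1, 0.03 to 0.10 with BMP4 and 0.09 to 0.20 untreated, with 2 called lower with TGF-β1, and 1 higher (Myf5, 0.83 ± 0.11, adjusted p = 0.0021) and 1 lower (Ttn, -0.54 ± 0.13, adjusted p = 0.036) with BMP4. Those over 5 neuronal markers were -0.58 to -0.08 with TGF-β1, -0.55 to 0.05 with BMP4 and 0.13 to 0.27 untreated, with 1 called lower for either factor. The part of these shifts in the results was not tested, and fewer cells of a type cannot be told apart from less RNA per cell in such bulk cultures.

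TGF-β1 raised 4 of the 8 measured genes. Of the 14 probe sets, 7 were called higher than in untreated cultures and 0 lower, at an adjusted p under 0.05 (limma, Benjamini-Hochberg over 45037 probe sets), against 4.43% of all probe sets called in either direction and 1.83% called higher. The 7 belonged to 4 genes, Pmepa1, Skil, Klf10 and Nox4. The median difference of the 14 was 0.47 log2 units, beside 0.01 over all probe sets, and 12 of 14 differences were above 0. With arrays of the same number treated as blocks, 10 were called higher, where 8.95% of all probe sets were called. In 11 of 14 the TGF-β1 and untreated arrays did not overlap, against 21.8% of all probe sets. BMP4 moved fewer of them. Against untreated cultures 1 probe set was called higher and 1 lower, of Pmepa1 and Cdkn1a, where 5.44% of all probe sets were called, and the median difference was 0.10 beside 0.00 over all probe sets. BMP4 and untreated arrays did not overlap in 9 of 14, against 20.0% of all probe sets. The direct comparison of TGF-β1 with BMP4 gave 6 probe sets called higher and 0 lower, of Pmepa1, Ski and Nox4, where 6.91% of all probe sets were called and 3.41% called higher. The block by number gave 9, beside 11.7% of all. All 14 differences between TGF-β1 and BMP4 were 0 or above, with a median of 0.47 beside 0.01 over all probe sets, and the arrays did not overlap in 11 of 14, against 25.5%. The comparisons share arrays, so their counts are not independent of each other. Because the genes were chosen with earlier results of these data known, the counts describe them and do not test the group against all probe sets.

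**Figure D1:**
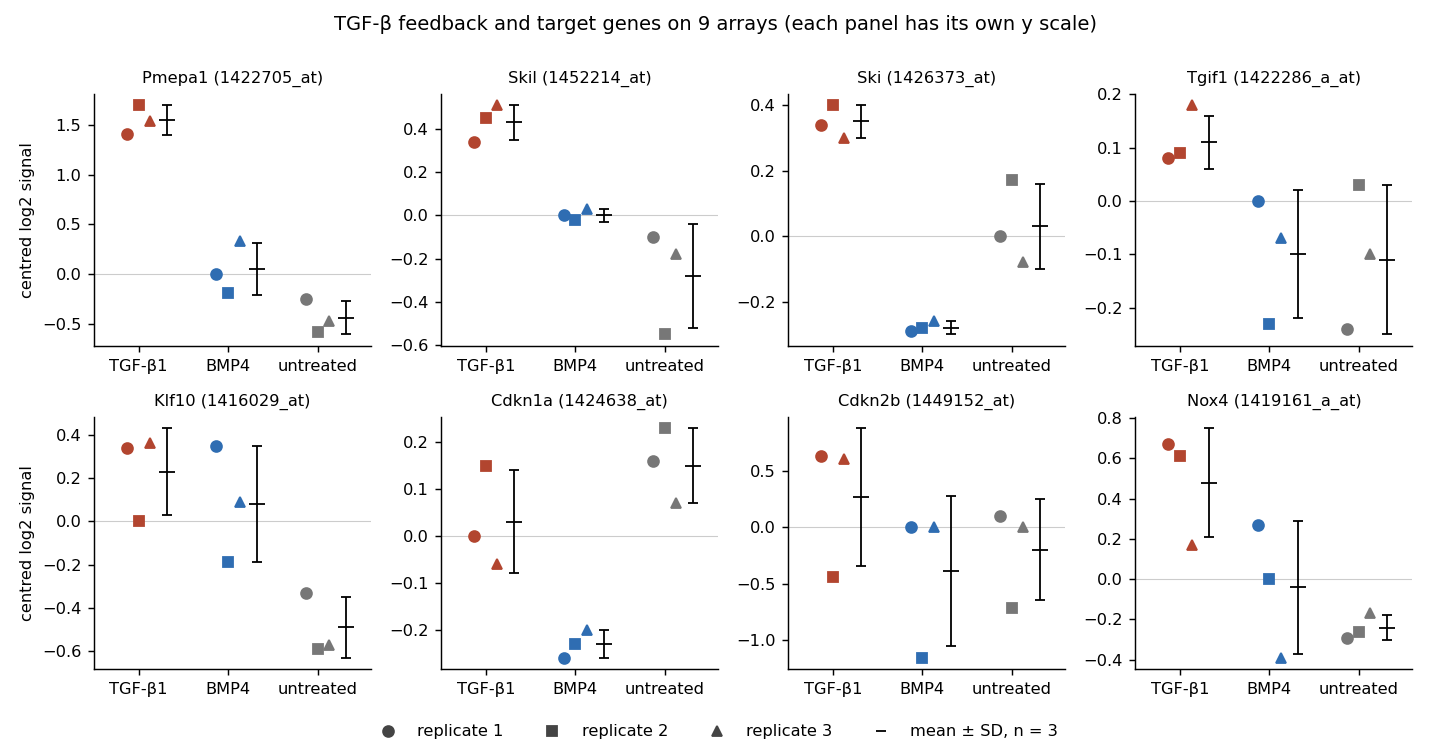
Centred log2 signal (y axis) of 1 probe set for each of the 8 measured genes in TGF-β1, BMP4 and untreated cultures, with 1 point per array, its replicate number as the marker shape, and the mean ± SD (n = 3) beside the points; each panel has its own scale. Pmepa1 shows the widest span (2.29 log2 units between the highest and lowest array), Tgif1 the narrowest (0.42), and in Cdkn2b the arrays numbered 2 lie below the others of their group.

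**Figure D2:**
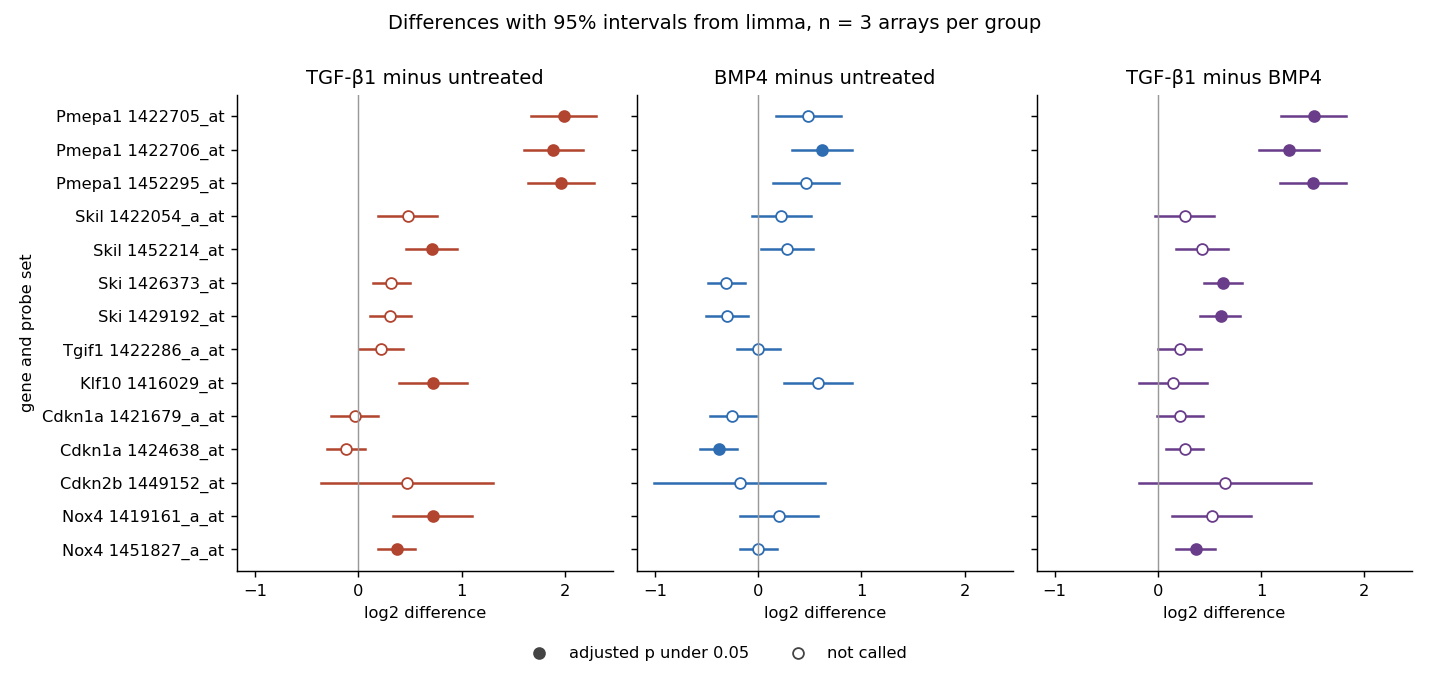
Log2 difference (x axis) of each of the 14 probe sets (y axis) in the 3 comparisons, TGF-β1 minus untreated, BMP4 minus untreated and, on the right, TGF-β1 minus BMP4, with 95% intervals from limma; filled circles have an adjusted p under 0.05. The 3 Pmepa1 probe sets lie near 2 with TGF-β1, the Ski probe sets lie right of 0 with TGF-β1 and left of 0 with BMP4, and Cdkn2b has the widest intervals.

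Pmepa1 codes for a membrane protein that binds Smad2 and Smad3, keeps them from the receptor and so limits TGF-β signalling. Its 3 probe sets gave nearly the same picture, although 1422705_at and 1422706_at were designed on the same expressed sequence and are not separate evidence. On 1422705_at the centred log2 signal was 1.41, 1.70 and 1.54 in TGF-β1 cultures, 0.00, -0.19 and 0.33 in BMP4 cultures, and -0.25, -0.59 and -0.47 in untreated cultures. Every TGF-β1 array lay more than 1 log2 unit above every other array, and the BMP4 arrays lay above the untreated ones with no overlap. Pmepa1 was 3.97-fold higher with TGF-β1 than untreated (1.99 ± 0.14 log2 units, SE, n = 3 each, adjusted p = 1.4e-04, limma). The probe sets 1422706_at and 1452295_at gave 1.89 ± 0.13 and 1.96 ± 0.15 (adjusted p = 1.1e-04 and 1.7e-04). Against BMP4 the TGF-β1 cultures were higher by 1.51, 1.27 and 1.50 log2 units on the 3 probe sets (adjusted p = 2.2e-04, 3.6e-04 and 2.7e-04). All 6 of these calls held without any 1 of the 9 arrays.

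BMP4 cultures also read above untreated cultures for Pmepa1, by a smaller step. On 1422706_at the signal was 0.00, -0.17 and 0.16 with BMP4 and -0.39, -0.83 and -0.66 untreated, a rise of 0.62 ± 0.13 log2 units or 1.54-fold (adjusted p = 0.021). This call was lost without any 1 of 4 arrays, untreated replicate 2 or 3 or BMP4 replicate 1 or 3, with adjusted p from 0.063 to 0.075, and without the 3 arrays numbered 2 (adjusted p = 0.0515). The other 2 probe sets gave 0.48 ± 0.14 and 0.46 ± 0.15 (adjusted p = 0.085 and 0.11) and were not called. The latter, 1452295_at, was called higher with the replicate numbers as blocks (adjusted p = 0.0478).

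Ski and Skil, whose product is also named SnoN, code for related proteins that bind activated Smads and bring in histone deacetylase complexes, which silences Smad target genes. Skil is itself a known TGF-β target gene, and its product closes a feedback loop. On 1452214_at the Skil signal was 0.34, 0.45 and 0.51 with TGF-β1, 0.00, -0.02 and 0.03 with BMP4, and -0.10, -0.55 and -0.18 untreated. The 3 groups were thus ordered with no overlap, and the BMP4 arrays were nearly equal. Skil rose 1.63-fold with TGF-β1 over untreated (0.71 ± 0.11, adjusted p = 0.0081), a call that held without any 1 array. Its second probe set, 1422054_a_at, read 0.19, 0.23 and 0.09 with TGF-β1 and -0.21, -0.56 and -0.15 untreated, a difference of 0.48 ± 0.13 that was not called (adjusted p = 0.070). Untreated replicate 2 was the lowest array on both. BMP4 differed from untreated by 0.28 ± 0.11 and 0.22 ± 0.13 (adjusted p = 0.23 and 0.45). Between TGF-β1 and BMP4 the Skil difference on 1452214_at was 0.43 ± 0.11 (adjusted p = 0.0505), with an interval of 0.18 to 0.68, and it passed the threshold when arrays of the same number were treated as blocks (adjusted p = 0.032).

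Ski differed between the growth factors more than either differed from untreated cultures. On 1426373_at its signal was 0.34, 0.40 and 0.30 with TGF-β1, -0.29, -0.28 and -0.26 with BMP4, and 0.00, 0.17 and -0.08 untreated. On 1429192_at it was 0.26, 0.25 and 0.44 with TGF-β1, -0.39, -0.35 and -0.13 with BMP4, and 0.03, 0.00 and -0.01 untreated. Untreated arrays lay between the treated groups on both probe sets, and no group overlapped another. TGF-β1 cultures were higher than BMP4 cultures by 0.63 ± 0.08 (1.54-fold, adjusted p = 0.0014) and 0.61 ± 0.09 log2 units (1.52-fold, adjusted p = 0.0029), and both calls held without any 1 array. Against untreated cultures the differences were 0.32 ± 0.08 and 0.31 ± 0.09 with TGF-β1 (adjusted p = 0.057 and 0.090). They were called higher with the replicate numbers as blocks (adjusted p = 0.034 and 0.044). With BMP4 they were -0.31 ± 0.08 and -0.30 ± 0.09 (adjusted p = 0.059 and 0.096), not called. The same blocks called these lower (adjusted p = 0.038 and 0.0496). Both comparisons use the same untreated arrays, so the 2 differences from untreated are not independent of each other.

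Tgif1, a homeodomain repressor that binds Smad2 and competes with coactivators, varied little. Its signal on 1422286_a_at was 0.08, 0.09 and 0.18 with TGF-β1, 0.00, -0.23 and -0.07 with BMP4, and -0.24, 0.03 and -0.10 untreated. The TGF-β1 arrays lay above all others, by as little as 0.06 within the arrays numbered 2. The difference from untreated was 0.22 ± 0.09 (95% interval 0.01 to 0.43, adjusted p = 0.25) and that from BMP4 was 0.21 ± 0.09 (interval 0.00 to 0.42, adjusted p = 0.24). BMP4 and untreated cultures differed by 0.00 ± 0.09, with an interval of -0.20 to 0.21.

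The Ski promoter is shown because Ski is the corepressor with the clearest step between the factors. It covers 250 bases before and 50 bases after the gene's start in RefSeq, at chr4:155222486-155222785 of GRCm38.p6 on the minus strand, read 5′ to 3′ along the gene. CAGAC (or GTCTG on the other strand), the core of the classical Smad binding element, is set in capitals wherever it occurs, and here it does not.
Ski: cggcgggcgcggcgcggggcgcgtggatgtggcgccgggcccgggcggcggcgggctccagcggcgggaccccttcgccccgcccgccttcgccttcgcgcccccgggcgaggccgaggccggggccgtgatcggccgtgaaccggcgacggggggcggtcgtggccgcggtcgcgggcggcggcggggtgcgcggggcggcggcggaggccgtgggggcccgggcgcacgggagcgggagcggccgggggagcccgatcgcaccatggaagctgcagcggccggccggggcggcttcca
The window is 85.3% G and C, beside a median of 52.7% over 32851 promoter windows of the same length. It holds 7 matches of GGCGC, the core of a GC-rich element that Smad proteins also bind, and 6 of GGGCGG, the Sp1 box. Of all windows, 49.6% hold CAGAC, 36.9% hold GGCGC and 35.7% hold GGGCGG, both strands searched, and GGCGC and its reverse complement GCGCC can overlap. These matches are a description of the letters and not of binding.

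Klf10, also called TIEG1 for TGF-β inducible early gene, codes for a zinc finger transcription factor of the Krüppel-like family. On 1416029_at its signal was 0.34, 0.00 and 0.36 with TGF-β1, 0.35, -0.19 and 0.09 with BMP4, and -0.33, -0.59 and -0.57 untreated. Every treated array lay above every untreated one, while the TGF-β1 and BMP4 arrays overlapped, with replicate 2 the lowest of each treated group. Klf10 was 1.65-fold higher with TGF-β1 than untreated (0.72 ± 0.15, adjusted p = 0.024). The call was lost without any 1 of 4 arrays, untreated replicate 2 or 3 or TGF-β1 replicate 1 or 3 (adjusted p from 0.060 to 0.098). With BMP4 the difference was 0.58 ± 0.15 and missed the threshold (1.49-fold, adjusted p = 0.053). It passed with the replicate numbers as blocks (adjusted p = 0.0052) and without the arrays numbered 2 (0.67, adjusted p = 0.0465). The factors differed from each other by 0.15 ± 0.15 (interval -0.18 to 0.48, adjusted p = 0.64). Klf10 and Pmepa1 were thus the genes with treated arrays wholly above the untreated ones on every probe set for either factor, and of this pair only Pmepa1 was called higher with TGF-β1 than with BMP4.

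Cdkn2b and Cdkn1a code for p15 and p21, which block the cyclin-dependent kinases that start the cell cycle, and in epithelial cells they carry the growth arrest caused by TGF-β. Cdkn2b had the widest scatter of the genes measured. On 1449152_at its signal was 0.63, -0.44 and 0.61 with TGF-β1, 0.00, -1.16 and 0.00 with BMP4, and 0.10, -0.72 and 0.00 untreated. Replicate 2 was the lowest array of every group, by 0.72 to 1.16 log2 units, which is more than any difference between group means, and all groups overlapped. The unpaired difference was 0.47 ± 0.37 for TGF-β1 minus untreated (adjusted p = 0.55) and 0.65 ± 0.37 for TGF-β1 minus BMP4 (adjusted p = 0.38). Between arrays of the same number the TGF-β1 culture was higher than the untreated one by 0.52, 0.28 and 0.61, and higher than the BMP4 one by 0.63, 0.72 and 0.61. With the number as a block, a pairing inferred from these data and not given by the labels, the SE fell to 0.09. Both differences were then called (adjusted p = 0.017 and 0.0026). Without the 3 arrays numbered 2 they were 0.57 and 0.62 (adjusted p = 0.031 and 0.013). Those are the arrays seen to be low in every group, so leaving them out narrows the spread and is not separate evidence. BMP4 and untreated cultures differed by -0.18 ± 0.37 (adjusted p = 0.88).

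**Figure D3:**
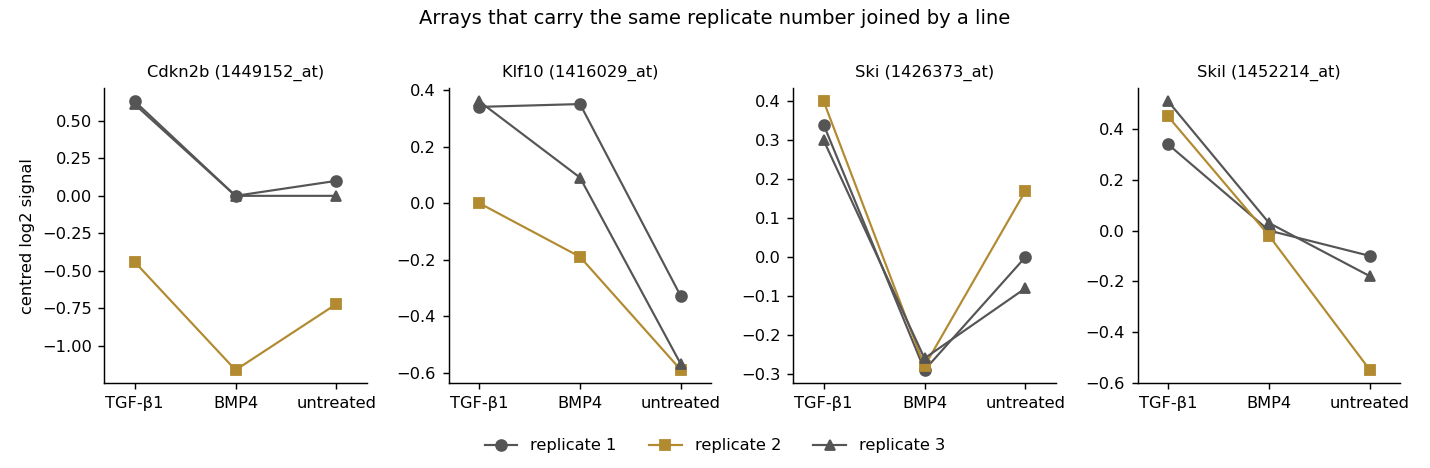
Centred log2 signal (y axis) of Cdkn2b, Klf10, Ski and Skil in TGF-β1, BMP4 and untreated cultures, with lines joining the arrays that carry the same replicate number and the arrays numbered 2 in ochre; each panel has its own scale. The Cdkn2b lines run nearly parallel at different heights, while the Ski arrays with BMP4 lie within 0.03 log2 units of each other.

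The window around the Cdkn2b start is shown as that of the cell cycle inhibitor with a rise under the block, at chr4:89310983-89311282 of GRCm38.p6 on the minus strand, with CAGAC or GTCTG in capitals.
Cdkn2b: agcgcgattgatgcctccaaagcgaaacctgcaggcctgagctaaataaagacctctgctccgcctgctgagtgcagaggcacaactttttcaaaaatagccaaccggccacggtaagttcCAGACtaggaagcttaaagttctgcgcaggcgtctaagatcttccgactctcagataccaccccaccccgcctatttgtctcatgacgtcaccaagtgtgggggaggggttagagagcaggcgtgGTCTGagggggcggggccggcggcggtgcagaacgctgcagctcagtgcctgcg
The first letter of the 2 matches lies at -129 and -4 from the start, counting the first transcribed base as 1, and the window holds 1 GGGCGG and 0 GGCGC. Its share of G and C is 57.7%.

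Cdkn1a read lowest with BMP4. On 1424638_at its signal was 0.00, 0.15 and -0.06 with TGF-β1, -0.26, -0.23 and -0.20 with BMP4, and 0.16, 0.23 and 0.07 untreated. BMP4 arrays were below all others, and TGF-β1 overlapped untreated. Cdkn1a fell with BMP4 to 1.30-fold below untreated (-0.38 ± 0.08, adjusted p = 0.023). The call was lost without any 1 of 5 arrays, untreated replicate 1 or 2 or any BMP4 array (adjusted p from 0.0519 to 0.084), and without the 3 arrays numbered 2 (adjusted p = 0.13). The second probe set, 1421679_a_at, gave -0.25 ± 0.10 for BMP4 minus untreated (adjusted p = 0.24). With TGF-β1 the differences from untreated, not called, were -0.12 ± 0.08 and -0.03 ± 0.10, with intervals of -0.30 to 0.06 and -0.26 to 0.19.

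Nox4 codes for an NADPH oxidase that makes hydrogen peroxide and is induced by TGF-β in fibroblasts. On 1419161_a_at its signal was 0.67, 0.61 and 0.17 with TGF-β1, 0.27, 0.00 and -0.39 with BMP4, and -0.29, -0.26 and -0.17 untreated. On 1451827_a_at it was 0.27, 0.29 and 0.37 with TGF-β1, 0.05, -0.19 and -0.04 with BMP4, and -0.08, -0.10 and 0.00 untreated. TGF-β1 arrays lay above all untreated arrays on both probe sets, and TGF-β1 replicate 3 was the lowest of its group on 1419161_a_at and the highest on 1451827_a_at. On 1419161_a_at the TGF-β1 and BMP4 arrays overlapped. Nox4 rose by 0.72 ± 0.17 (1.65-fold, adjusted p = 0.043) and 0.37 ± 0.08 log2 units (1.29-fold, adjusted p = 0.033) over untreated. Each call was lost without any 1 of 6 arrays, with adjusted p from 0.062 to 0.14 on 1419161_a_at (any array but BMP4 replicate 1 or 3 and TGF-β1 replicate 3) and from 0.0537 to 0.12 on 1451827_a_at (any array but untreated replicate 3 and BMP4 replicate 1 or 2). Without the 3 arrays numbered 2 both were lost too (adjusted p = 0.26 and 0.13). Over BMP4 the rise was 0.37 ± 0.08 on 1451827_a_at (adjusted p = 0.024), lost without any TGF-β1 array or BMP4 replicate 2 or 3 (adjusted p from 0.056 to 0.093). On 1419161_a_at it was 0.52 ± 0.17 (adjusted p = 0.11, and 0.040 with the replicate numbers as blocks). BMP4 minus untreated was 0.20 ± 0.17 and 0.00 ± 0.08 (adjusted p = 0.65 and 0.99).

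The window around the Nox4 start, shown as that of a gene called higher with TGF-β1 on all its probe sets, lies at chr7:87246399-87246698 of GRCm38.p6 on the plus strand, with the Smad element in capitals as before.
Nox4: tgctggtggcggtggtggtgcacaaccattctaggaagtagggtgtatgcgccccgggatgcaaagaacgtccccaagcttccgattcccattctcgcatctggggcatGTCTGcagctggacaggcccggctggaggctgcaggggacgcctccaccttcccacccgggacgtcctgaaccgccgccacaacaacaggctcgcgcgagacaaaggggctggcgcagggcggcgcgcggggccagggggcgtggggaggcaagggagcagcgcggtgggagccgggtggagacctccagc
It holds 1 match of the Smad element, as GTCTG with its first letter at -141 from the start, with 3 of GGCGC and 1 of GGGCGG, and 68.3% G and C. TATAAA, the TATA box, is in none of the 11 windows of 6 of the 9 genes, and in 13.6% of all windows. No window was matched for Pmepa1, Skil and Klf10.

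Some relatives of these genes moved, though not as whole families. Of 21 measured relatives, 3 were called higher and 2 lower with TGF-β1 than untreated, where 6.75% of all genes were called, with a median of -0.11. The replicate numbers as blocks gave 3 higher and 4 lower, where 13.4% of all genes were called. Ldlrad4, the closest relative of Pmepa1 and likewise a binder of Smad2 and Smad3, read 1.47, 1.75 and 1.49 with TGF-β1, -0.25, -0.28 and -0.64 with BMP4, and 0.00, 0.17 and -0.42 untreated. Its TGF-β1 arrays stood apart from all others, 3.15-fold over untreated (1.66 ± 0.16, adjusted p = 5.8e-04) and 3.90-fold over BMP4 (1.96 ± 0.16, adjusted p = 1.0e-04), and both calls held without any 1 array. Of its 4 probe sets 3 were called in both of these comparisons. Unlike Pmepa1, Ldlrad4 was not above untreated with BMP4 (-0.31 ± 0.16, adjusted p = 0.38).

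In the Krüppel-like family, Klf13 was 1.80-fold higher with TGF-β1 than untreated (0.85 ± 0.16, adjusted p = 0.017), on 2 of its 3 probe sets. Klf9 was 0.39 ± 0.09 higher on 1 of the 2 called among its 7 probe sets, which ran down to 0.11 (adjusted p = 0.037, lost without any 1 of 7 arrays, up to adjusted p = 0.11). Klf11, the nearest relative of Klf10, went the other way at -0.26 ± 0.08 (adjusted p = 0.091) and was called lower than with BMP4 (-0.32 ± 0.08, adjusted p = 0.037, lost without any 1 TGF-β1 or BMP4 array, up to adjusted p = 0.13). Klf16 was the only relative of the 21 called with BMP4 against untreated (0.51 ± 0.10, adjusted p = 0.016, lost without BMP4 replicate 1 or 2, up to adjusted p = 0.070), where 7.96% of all genes were called. Dach1, a corepressor that shares a conserved domain with Ski, fell with TGF-β1 on 1 of its 3 probe sets: -0.68, -0.74 and -0.81 with TGF-β1, 0.00, 0.10 and 0.01 with BMP4, and 0.16, 0.53 and 0.00 untreated. The difference was -0.97 ± 0.12 against untreated (adjusted p = 0.0023) and -0.78 ± 0.12 against BMP4 (adjusted p = 0.0039). Tgif2 was close to Tgif1 in size, at 0.19 ± 0.09 over untreated with TGF-β1 (adjusted p = 0.28). None of the other 5 measured inhibitors of cyclin-dependent kinases was called in any comparison (Cdkn1b, Cdkn1c, Cdkn2a, Cdkn2c and Cdkn2d, adjusted p from 0.079 upwards), though Cdkn2d, at -0.42 ± 0.13 for TGF-β1 minus BMP4, passed with the replicate numbers as blocks (adjusted p = 0.087 without and 0.0068 with them). Cybb, which codes for the oxidase NOX2, was at -0.61 ± 0.15 with TGF-β1 against untreated (adjusted p = 0.055, and 0.0019 with the blocks). Among 6 serpins, to which Serpine2 belongs, Serping1 was lower with TGF-β1 than untreated by 0.88 ± 0.10 log2 units (adjusted p = 0.0017). Serpini1, at -0.53 ± 0.14 against untreated and -0.40 ± 0.14 against BMP4 (adjusted p = 0.072 and 0.15), was called lower with TGF-β1 in both comparisons with the blocks (adjusted p = 0.020 and 0.0482), while its 3 probe sets ran up to 0.04 and 0.03.

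**Figure D4:**
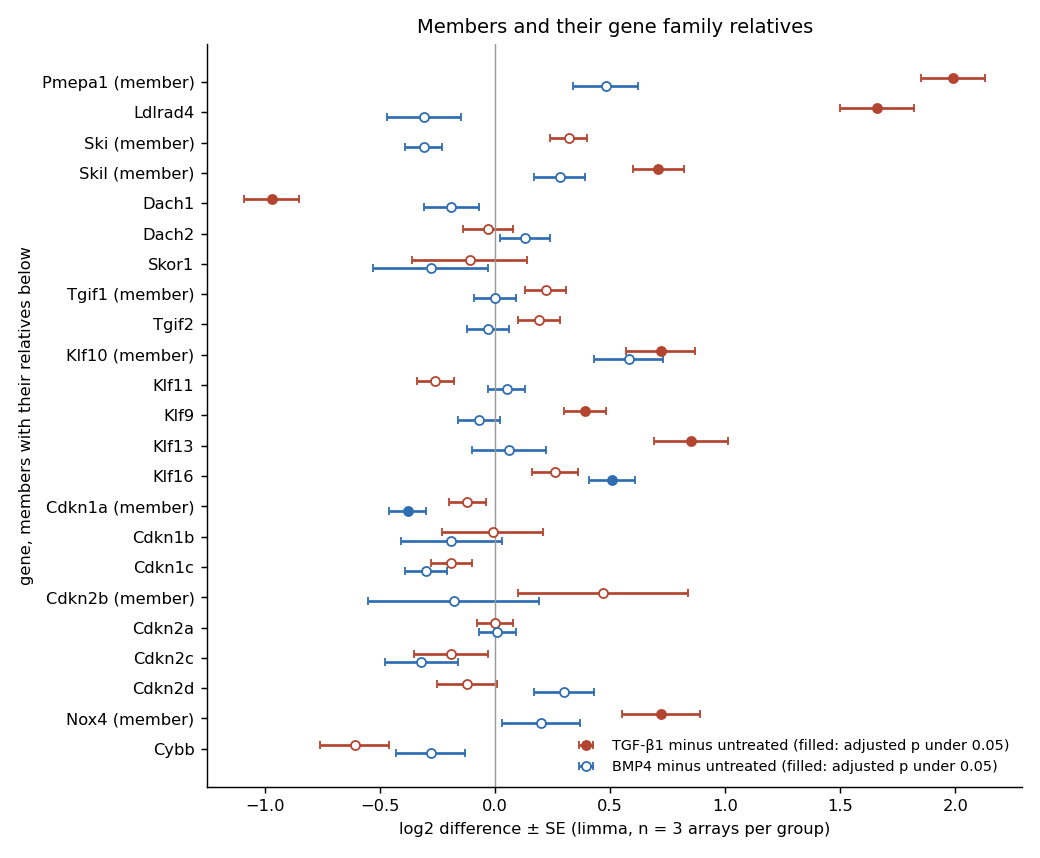
Log2 difference ± SE (x axis, limma, n = 3 arrays per group) of the measured genes and, below each, its relatives (y axis), for TGF-β1 minus untreated in red and BMP4 minus untreated in blue; filled circles have an adjusted p under 0.05. Pmepa1 and Ldlrad4 stand out to the right with TGF-β1 (1.99 and 1.66), and Dach1 to the left (-0.97).

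The receptors, ligands and Smads of the pathway changed in both directions. Of 21 components, all measured, 4 were called higher and 3 lower with TGF-β1 than untreated, where 6.75% of all genes were called, with a median of 0.07. With the replicate numbers as blocks it was 5 higher and 4 lower, where 13.4% of all genes were called. Those added were Smurf2 (0.46, block SE 0.10, adjusted p = 0.022, with another of its 3 probe sets called without the blocks) and Acvrl1 (-0.41, block SE 0.09, adjusted p = 0.029). With BMP4 it was 3 higher and 5 lower, where 7.96% of all genes were called, with a median of 0.03. Among the ligands, Tgfb3 read 0.74, 0.75 and 0.66 with TGF-β1, -0.66, -0.89 and -0.80 with BMP4, and 0.00, 0.10 and -0.13 untreated. The groups did not overlap, in the same order as for Ski, and the factors differed by 1.50 ± 0.09 (adjusted p = 1.5e-05). On 1 of its 2 probe sets Tgfb1 was higher with either factor, by 1.09 ± 0.22 with TGF-β1 and 1.08 ± 0.22 with BMP4 (adjusted p = 0.021 and 0.018), though each call was lost without any 1 of 4 arrays (up to adjusted p = 0.089 and 0.072). The other probe set gave 0.48 with TGF-β1, called, and 0.18 with BMP4, not called. On the first, as for Klf10, every treated array lay above every untreated one. Tgfb2 fell with TGF-β1 on all 4 of its probe sets, by 0.98 ± 0.16 log2 units on the most variable (adjusted p = 0.0098), and was not called with BMP4 (-0.27 ± 0.16, adjusted p = 0.47).

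Tgfbr3, the coreceptor betaglycan, fell 4.53-fold with TGF-β1 and 4.41-fold with BMP4 (-2.18 ± 0.16 and -2.14 ± 0.16, adjusted p = 1.5e-04 and 1.1e-04), on 1 of its 2 probe sets (the other gave -0.64 and -0.74, not called). On 1 of its 3 probe sets Smad3 was lower with TGF-β1 (-0.61 ± 0.11, adjusted p = 0.013, lost without TGF-β1 replicate 1 or 3, up to adjusted p = 0.059) and with BMP4 (-1.18 ± 0.11, adjusted p = 3.0e-04), and higher with TGF-β1 than with BMP4 (0.57 ± 0.11, adjusted p = 0.011). The other 2 were not called in any comparison, and the smallest differences were -0.41, -0.52 and 0.11 in the same order. Tgfbr2 was not called with TGF-β1 (0.24 ± 0.16, adjusted p = 0.47) and fell with BMP4 by 1.35 ± 0.16 log2 units on 1 of its 3 probe sets (adjusted p = 0.0013). Of the other inhibitors in the pathway, Smad7 read 0.00, -0.11 and 0.08 with TGF-β1, 0.68, 0.77 and 0.66 with BMP4, and -0.36, -0.62 and -0.28 untreated. Its order was thus the reverse of that of Pmepa1 among treated cultures, with TGF-β1 below BMP4 by 0.71 ± 0.10 (adjusted p = 0.0021). Over untreated it rose 1.12 ± 0.10 with BMP4 (adjusted p = 2.4e-04) and 0.41 ± 0.10 with TGF-β1 (adjusted p = 0.0476, on 1 of its 2 probe sets, called without only 1 of the 9 arrays, untreated replicate 3). Bambi, a pseudoreceptor, differed likewise, at -1.83 ± 0.10 for TGF-β1 minus BMP4 (adjusted p = 1.3e-05).

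The partners of these proteins were counted beside the 6.75% of all genes called with TGF-β1 and the 7.96% called with BMP4 against untreated. Of 11 measured genes listed as corepressor partners, among them histone deacetylases, 0 were called with TGF-β1 against untreated (3 at unadjusted p under 0.05, limma). This count uses 1 probe set per gene. Another probe set of Tbl1xr1, 1 of its 6, was called lower there. Sin3a, at -0.36 ± 0.10, was called there with the replicate numbers as blocks (adjusted p = 0.033). With BMP4 1 was called, Ctbp2 (0.37 ± 0.08 on 1 of its 2 probe sets, adjusted p = 0.023, lost without any 1 of 5 arrays, up to adjusted p = 0.087). Of 18 cell cycle genes, 1 was called with TGF-β1 against untreated, the proliferation marker Mki67 (-0.33 ± 0.08, adjusted p = 0.042), a call lost without any 1 of the 9 arrays (adjusted p up to 0.14). The block added the retinoblastoma relative Rbl2 (-0.41, block SE 0.10, adjusted p = 0.034). With BMP4, the cyclin gene Ccne2 (0.81 ± 0.16, adjusted p = 0.015, lost without BMP4 replicate 1 or 2) and Myc were higher than untreated, and E2f2 was lower (-0.60 ± 0.13 on 1 of its 2 probe sets, adjusted p = 0.027, lost without any 1 of 4 arrays). E2f1 was called higher with BMP4 on 1 of its 3 probe sets, not the one counted here. Myc, which represses Cdkn2b and Cdkn1a, read 0.00, -0.11 and 0.00 with TGF-β1, 0.76, 1.05 and 0.80 with BMP4, and -0.14, -0.17 and -0.06 untreated. BMP4 arrays lay above all others, and Myc was higher with BMP4 than untreated by 1.00 ± 0.09 (adjusted p = 3.0e-04) and differed by 0.09 ± 0.09 between TGF-β1 and untreated (adjusted p = 0.65).

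Among 2113 genes whose 9 values span at least 1 log2 unit, those most like each gene over the 9 arrays were picked by Pearson's r, as a description of patterns that share 3 groups and the same arrays. Pmepa1 was followed most closely by Adamts6 (r = 0.99), Nupr1 and Spsb1 (0.98 each), and most opposed by Nrp1 (-0.99). Skil was nearest to Adamts20, Nkd2 (0.98 each) and Kdelr3 (0.97), and Ski to Tmem178 (0.99), Hook1 and Tgfb3 (0.98 each), with Ehd3 most opposed to Ski (-0.99). Klf10 was nearest to Ak5, Rgs2 (0.96 each) and Tgfb1 (0.94). Cdkn1a lay nearest to Wnt5b (0.99), Sorl1 and Srgap3 (0.98 each). Cdkn2b, with its low arrays numbered 2, was nearest to Pdlim1, Socs2 (0.98 each) and F2r (0.97). Nox4 and Tgif1 had no such close neighbour, at most 0.92 for Mtus1 with Nox4 and 0.85 for Fzd6 with Tgif1. No gene was among the 3 nearest of more than 1 of the 8 genes.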

How the data were processed

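Per the labels, RNA of 9 cultures (50 ng of total RNA each, amplified in 2 cycles) was hybridised to Affymetrix mouse genome arrays. The authors deposited log2 signals made with the RMA method (named in the submitters' processing notes, version not given in the sources used here), and in the deposited table each of 45101 probe sets had a median of 0 over the arrays. Array signals have no sequencing depth; their precision is limited by the 3 arrays per group, and signal over background could not be judged, so no filter on low signal was applied.

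After 64 control probe sets were left out, a linear model of the 3 groups was fitted to all 9 arrays with limma 3.58.1 in R 4.3.3 (6 degrees of freedom from the residuals and 4.01 from the prior; the residual SD had a median of 0.129 log2 units), and checked on simulated data. P values are two-sided, adjusted by Benjamini-Hochberg over 45037 probe sets and called under 0.05. An exact two-sided permutation test of 3 against 3 arrays cannot go below 0.1, so none was used. Errors after ± are SE of the model without blocks, also where an adjusted p from the blocks stands beside them. Intervals use t = 2.228. Figures were drawn in Python 3.11.15 with matplotlib 3.10.9.

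Of the probe sets, 34945 carried 1 symbol, 932 several and 9160 none in GEO's platform annotation. The Entrez identifiers of 34741 were found in the RefSeq gene table, and 0 symbols changed. For genes outside the 9, the probe set of the largest variance stands for the gene (18193 genes). Promoter windows come from a RefSeq table of GRCm38.p6. The members and gene lists were chosen with earlier results of these data known. Genes named beyond the members are relatives, up to 3 called genes of each list with the largest differences in a comparison, and for each member the 3 genes most like it and the most opposed. Smad3, Smad7 and genes called only under the block were added after their values were seen.

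Replicate numbers were taken to pair arrays where same-numbered arrays deviated together from their group means. The correlations were 0.14, 0.49 and 0.28 for TGF-β1 with untreated and 0.29, 0.50 and 0.38 for TGF-β1 with BMP4; the pairing rests on these values, since the labels give only the numbers. Untreated replicate 1 lay closer to TGF-β1 replicate 3 (0.20) than to TGF-β1 replicate 1. The correlations of BMP4 with untreated did not meet the rule. Set-ups shared by number would pair all 3 groups, so the pairing is uncertain for the TGF-β1 comparisons too. Alternatives were a replicate block, 2 groups only, each array left out, no arrays numbered 2, other normalizations, a variance filter, robust moderation and the methods' 2-group test with unequal variance.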

Additional observations from a re-analysis of the deposited data

How the results depend on the processing

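The 7 probe sets called with TGF-β1 against untreated were 4 to 7 when 1 array was left out, the 2 called with BMP4 were 0 to 4, and the 6 called between TGF-β1 and BMP4 were 5 to 7. The first count was 4 without TGF-β1 replicate 1. The second was 1 without untreated replicate 1 or BMP4 replicate 3, 0 without untreated replicate 2 or BMP4 replicate 1, and 4 without TGF-β1 replicate 2. With a replicate block the counts were 10, 6 and 9 in the same order of comparisons. The 6 with BMP4 were 3 higher, of Pmepa1 and Klf10, and 3 lower, of Ski and Cdkn1a. Of all probe sets the block called 8.95% and 11.7% in the comparisons that gave 10 and 9. For the 6 and the other counts of this paragraph no such share is given. These counts therefore show how the calls moved and are not set against all probe sets. For BMP4 against untreated the numbers are shared as labels only (correlations of same-numbered arrays -0.05, 0.50 and 0.24, with BMP4 replicate 3 closest to untreated replicate 1 at 0.36). Untreated replicate 1 was likewise closer to TGF-β1 replicate 3 (0.20) than to TGF-β1 replicate 1 (0.14). For the 14 probe sets the block changed no other call of the TGF-β1 comparisons than those given above. The count for BMP4 was 1 in a fit of its 2 groups alone, 1 without the 3 arrays numbered 2 and 4 after quantile normalization.

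The methods' 2-group test gave 0 calls in each comparison after Benjamini-Hochberg (9, 4 and 8 of 14 at unadjusted p under 0.05), and 3 for TGF-β1 against untreated, 0 for BMP4 against untreated and 3 for TGF-β1 against BMP4 at its own p and 2-fold threshold. Of all 45037 probe sets this test called 0, 0 and 11 after adjustment, and 253, 433 and 543 at its p and 2-fold threshold. No count over all probe sets is given for the unadjusted p alone.

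The direction turned in 4 results, none of them called. With 1 array left out, Cdkn1a on 1421679_a_at ran from -0.12 to 0.05 for TGF-β1 against untreated (above 0 without untreated replicate 2 or TGF-β1 replicate 1 or 3). For BMP4 against untreated, Tgif1 ran from -0.06 to 0.07 (below 0 without untreated replicate 1 or BMP4 replicate 1 or 3), Cdkn2b from -0.44 to 0.20 (above 0 without BMP4 replicate 2) and Nox4 on 1451827_a_at from -0.05 to 0.07 (below 0 without untreated replicate 1 or 2 or BMP4 replicate 1 or 3). Quantile normalization put the last at -0.01. Over all alternatives the differences of the 14 probe sets kept direction and call in 636 cases, lost a call in 56, gained one in 31 and turned in 12, and the cause was not tested. The 636 include differences that were not called and stayed so. For TGF-β1 against untreated, the Pmepa1 call on 1422705_at was kept in 17 alternatives and lost in 1. The Nox4 calls there were kept in 9 and lost in 9 on 1419161_a_at, and kept in 7 and lost in 10 on 1451827_a_at. Each array already had a median of 0.0, so setting it to 0 left the values as they were and is no check on normalization. The variance filter left out Tgif1.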

Other observations

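Genes near these in function were measured as further lists. Of 13 genes that p53 activates, as it does Cdkn1a, 1 was called higher and 1 lower with either factor against untreated, where 6.75% of all genes were called with TGF-β1 and 7.96% with BMP4. Plk2, a polo-like kinase gene, was higher on 1 of its 2 probe sets by 0.65 ± 0.12 with TGF-β1 and by 0.65 ± 0.12 with BMP4 (adjusted p = 0.014 and 0.0099, limma), whereas the other gave -0.11 and -0.05. Gadd45a, a growth arrest and DNA damage gene, was lower by 0.62 ± 0.11 and 0.49 ± 0.11 log2 units (adjusted p = 0.015 and 0.030). Leaving out 1 array ended the Plk2 call in 3 of 9 cases with TGF-β1 and the Gadd45a call in 2 of 9 with TGF-β1 and 7 of 9 with BMP4. Btg2, an antiproliferative gene, was higher with TGF-β1 than with BMP4 by 0.95 ± 0.15 (adjusted p = 0.0041). Its other probe set was called lower with BMP4 than untreated (-0.43). With the replicate numbers as blocks, 3 genes were called higher and 2 lower with TGF-β1 than untreated, where 13.4% of all genes were called. Those added were Btg2 (0.59, its other probe set, at 0.44, being called without the blocks), Fas (0.65) and Trp53inp1 (-0.65). Their block SE were 0.14, 0.10 and 0.10, with adjusted p of 0.031, 0.0072 and 0.0072.

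Of 11 partners of Nox4 and redox genes, 0 were called with either factor against untreated (3 at unadjusted p under 0.05 with TGF-β1 and 2 with BMP4, limma). The block called 0 higher and 2 lower with TGF-β1 against untreated, Nqo1 (-0.77, block SE 0.09, adjusted p = 0.0021) and Cat (-0.42, block SE 0.10, adjusted p = 0.033). Between the factors, Cyba, which codes for the p22phox subunit that NOX4 needs, was higher with TGF-β1 than with BMP4 (0.44 ± 0.10, adjusted p = 0.021), and the antioxidant genes Nqo1 (-1.04 ± 0.25, adjusted p = 0.034) and Cat (-0.57 ± 0.13, adjusted p = 0.029) were lower. Each of these 3 calls was lost without any 1 of 4 or 5 arrays. Of 9 protease partners of Serpine2, 0 were called in any comparison (0 at unadjusted p under 0.05 for TGF-β1 against untreated, 2 for BMP4 against untreated and 1 between the factors). The block called F2r and Plaur, the thrombin and urokinase receptor genes, higher with TGF-β1 than untreated (0.46 and 0.56, block SE 0.08 and 0.10, adjusted p = 0.011 and 0.010). It also called F2r higher with TGF-β1 than with BMP4 (0.57, block SE 0.08, adjusted p = 0.0026).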
